A study of Mus musculus with 15 samples.

Results

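Immediate early genes are the genes that cells transcribe first after a stimulus, and 32 of them were followed here through mouse dorsal root ganglia, the clusters of sensory nerve cells beside the spinal cord. The members were chosen by symbol as genes induced by activity and stress, and each of the 32 matched 1 of the 39179 gene rows of the count table. Jun and Atf3 were left out of the list and are described beside it. The study measured poly(A) RNA of whole lumbar 4 to 6 ganglia in 15 libraries, 1 for each animal number in the labels, from mice aged 3 to 6 months on a mixed strain in which C57bl6 prevails. It compared mice with and without the microRNA-183 cluster, in naive animals and after spared nerve injury (SNI), which ties and cuts the tibial and common peroneal branches of the sciatic nerve but leaves the sural branch whole.

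The control naive group held 5 libraries, 4 labelled Wnt1-Cre (replicates 1, 2, 3 and 6) and 1 labelled wt (replicate 7). The knockout naive group held 4 libraries labelled Wnt1-Cre; mirflox/flox (replicates 4, 5, 8 and 9), in which Cre from the Wnt1 promoter acts in the neural crest, the source of the neurons and glia of the ganglion but not of its macrophages or vessels. The control SNI group held 1 library labelled Wnt1-Cre (replicate 15) and 2 labelled wt (replicates 18 and 23), and the knockout SNI group held 3 labelled Wnt1-Cre; mirflox/flox (replicates 13, 19 and 21). No label describes the flox allele without Cre. Animal numbers ran from 1041 to 1082 in the naive groups and from 948 to 976 in the injured groups, so injury and the animals' cohort cannot be told apart. The genotypes were interleaved by animal number only in the naive groups.

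Immediate early genes need no new protein to be switched on, because the factors that act on their promoters (CREB, serum response factor with its Elk and Mkl partners, Mef2) are already in the cell and wait for a signal from calcium or the MAP kinases. Their transcripts appear within minutes of a stimulus and decay quickly. In sensory ganglia they are known to respond to firing, to axon injury, to growth factors and cytokines, and to the handling of tissue between death and lysis. The members fall into roles. Fos, Fosb, Fosl1, Fosl2, Junb and Jund are subunits of the transcription factor AP-1, and Maff is a small Maf protein that pairs with related factors. Egr1, Egr3, Egr4, Klf2 and Klf10 are zinc finger factors, and Nr4a1, Nr4a2 and Nr4a3 are orphan nuclear receptors. Arc, which removes glutamate receptors from synapses, Npas4, a factor induced by calcium entry in neurons, and Homer1, a postsynaptic scaffold whose short isoform is the induced one, are the neuronal members. Counts per gene do not separate the Homer1 isoforms. A group of 8 act as feedback: Dusp1, Dusp2, Dusp4, Dusp5 and Dusp6 are phosphatases of MAP kinases, Sik1 is a kinase that restrains CREB coactivators, and Zfp36 and Btg2 shorten the life of messenger RNAs. Ier2, Ier3 and Ier5 are short early-response genes. Ptgs2 encodes cyclooxygenase-2, Cyr61 a matricellular protein, and Per1 a clock protein.

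The letters that CREB binds were frequent in the members' promoters, and the windows printed here belong to 5 of the members that were highest in the same 2 naive control libraries, with Homer1, which varied least, for comparison. The promoter windows came from RefSeq on GRCm38.p6, in which 24 of the 32 members had an entry. They cover only bases near the start site of transcription, so sites of any kind farther upstream were not counted. On either strand, TGACG stood in the promoter of 18 of these 24 members (75%) and of 23.05% of 27025 genes. The longer TGACGT, which contains it, stood in 12 of 24 (50%) against 8.37% of genes, and the whole cAMP response element TGACGTCA, which contains both, in 3 of 24 (12.5%, Btg2, Dusp1 and Maff) against 2.03%. Some genes have several start sites, and counted by window TGACG was in 20 of 28 member windows and 20.81% of all 32851. The CArG box of serum response factor was found in 2 of the 24 (8.3%, Dusp5 and Zfp36) against 1.81% of genes. The AP-1 letters TGACTCA or TGAGTCA were in 0 of the 24 members against 5.95% of genes. Each run is printed 5′ to 3′ on the gene's strand, with TGACG, its reverse complement CGTCA or the longer match in capitals, 1 match to a window.
Fos (chr12:85473809-85473844, plus strand): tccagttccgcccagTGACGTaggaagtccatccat
Nr4a3 (chr4:48045143-48045178, plus strand): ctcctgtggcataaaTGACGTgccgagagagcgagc
Cyr61 (chr3:145650023-145650058, minus strand): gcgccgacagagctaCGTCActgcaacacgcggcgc
Btg2 (chr1:134079301-134079336, minus strand): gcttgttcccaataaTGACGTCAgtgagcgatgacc
Nr4a1 (chr15:101266791-101266826, plus strand): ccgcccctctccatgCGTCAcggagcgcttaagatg
Homer1 (chr13:93303702-93303737, plus strand): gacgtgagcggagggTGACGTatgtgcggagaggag
The Homer1 promoter held 3 copies of TGACGT, as did that of Nr4a3, and the levels of these members were the least and the most variable between libraries of one group. A match is a run of letters and was not tested for binding.

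The deleted cluster encodes the microRNAs miR-183, miR-96 and miR-182 on chromosome 6, and their mature sequences are shown with the seed, bases 2 to 8, in capitals, because a target site is read from it. Sequences are RefSeq's on GRCm38.p6.
miR-182-5p (chr6:30165962-30165986, minus strand): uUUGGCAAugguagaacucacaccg
miR-96-5p (chr6:30169506-30169528, minus strand): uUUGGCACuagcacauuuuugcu
miR-183-5p (chr6:30169711-30169732, minus strand): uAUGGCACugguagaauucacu
The 3 seeds differ from each other, so no pair shares a full seed. Those of miR-182 and miR-96 differ only at base 8, and shorter matches, which they can share, were not counted. A full seed match followed by A was present in the longest annotated 3′ UTR of 3 of the 32 members (9.4%) and of 10.2% of 14466 tested genes, a like share. All 3 were matches to miR-182-5p, shown with the match in capitals.
Egr3 (chromosome 14, 3′ UTR position 2203): aaaaaactttgTTGCCAAAaggttgtgcta
Fosl2 (chromosome 5, 3′ UTR position 802): acaggttgggtTTGCCAAAcgtctaattac
Zfp36 (chromosome 7, 3′ UTR position 539): agccaaagccaTTGCCAAAtcccttctccc
Their log2 differences between knockout and control naive ganglia were 0.11 (SE 0.36), -0.08 (SE 0.20) and -0.09 (SE 0.18), and none was called.

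The libraries held 5.25 to 10.82 M counts, so 0 counts in a library cap a gene at 0.273 to 0.647 CPM (a gene's counts for each M counts of its library, after TMM scaling), for counting error only. The deletion could not be read from the microRNA genes, which had 0 (Mir183), 1 (Mir96) and 2 (Mir182) counts over all libraries. The 12 sensory neuron markers summed to 9905 to 12050 CPM with none at 0, as the tissue label has it. Control SNI replicate 23 stood apart, with the smallest depth, 7.43% mitochondrial counts against 2.26% to 3.60% in the other 14, and the highest level of the 15 for 25.0% of all genes tested. All values are from whole ganglia, in which fewer cells of a type and less RNA per cell cannot be told apart.

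At these depths 29 of the 32 members passed the filter on low counts and were tested among 16976 genes with edgeR's quasi-likelihood test. Egr4, Npas4 and Ptgs2 were not tested. Members were modest in level: 13 had a mean of at least 10 CPM over the libraries and 7 a mean under 2. Per kilobase of exon, Jund was the highest member at 15.1 CPM, followed by Ier3 at 12.2, Nr4a1 at 9.07 and Dusp5 at 8.19. On the same scale Fos stood at 3.29, Junb at 3.35, Egr1 at 3.48 and Fosb at 0.145, and Egr4 was lowest at 0.035.

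**Figure D1:**
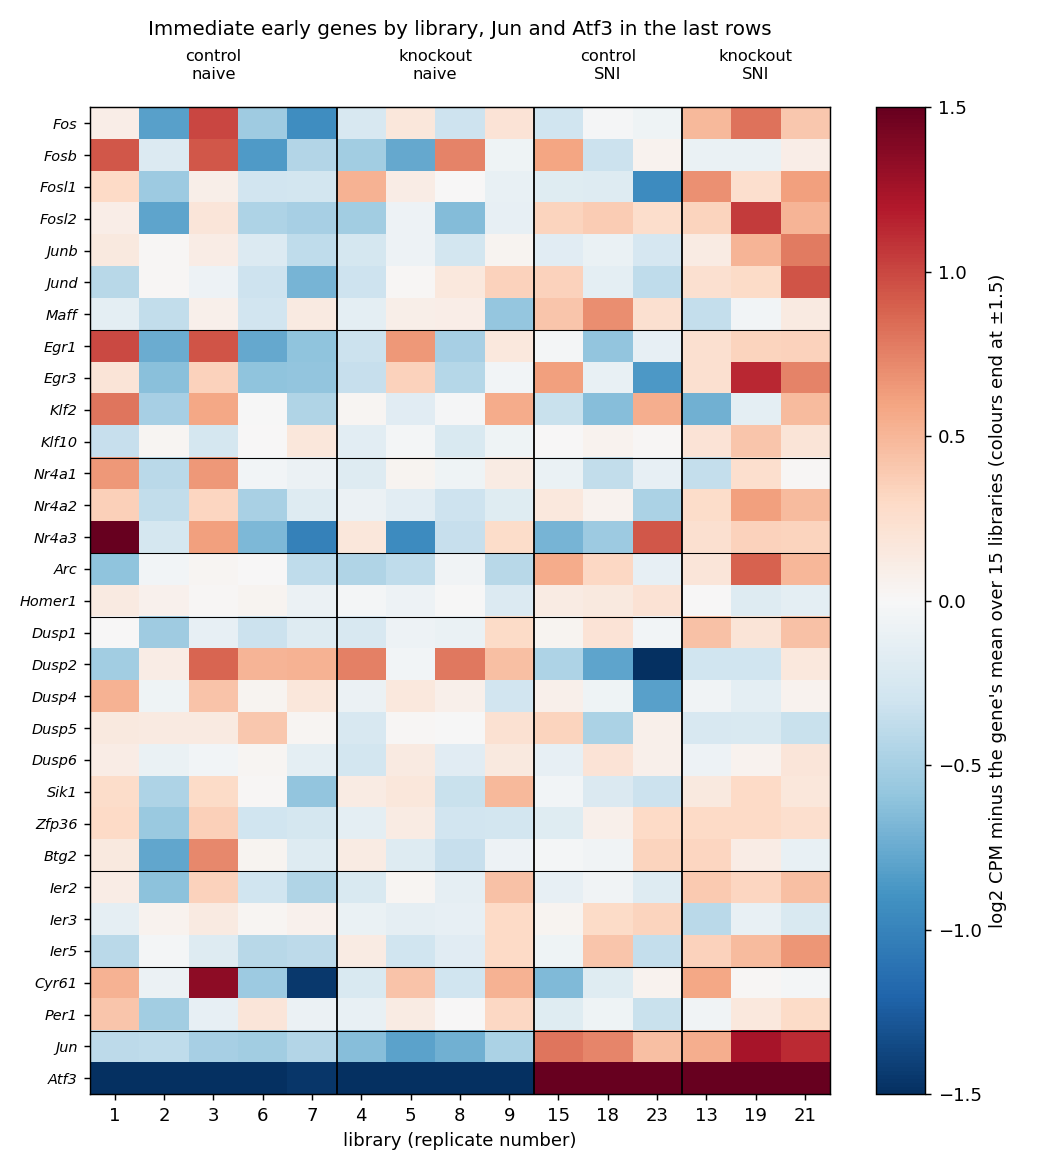
Level of the 29 tested members, by role, and of Jun and Atf3 in the last 2 rows, in each of the 15 libraries, as log2 CPM minus the gene's mean over all libraries (colours end at ±1.5). Control naive replicates 1 and 3 are red in most rows, while Jun and Atf3 are low in all 9 naive and high in all 6 injured libraries.

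Among naive controls, 2 libraries carried high levels of most members. Replicate 1 was among the 2 highest of the 5 libraries for 22 of the 29 members and replicate 3 for 24, while replicates 2, 6 and 7 each were for 4. Over all 16976 genes the same share was 39.0% to 42% in each of the 5. The median member lay 0.378 (replicate 1) and 0.473 (replicate 3) on the log2 scale from the other libraries of the group, against -0.365 (replicate 2), -0.156 (replicate 6) and -0.224 (replicate 7), and the median of all genes lay within 0.013 of 0. These are descriptions, with no test. Replicates 1, 2 and 3 have the animal numbers 1041, 1042 and 1043, so the lowest library and both high ones are neighbours by number.

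The AP-1 subunits show the range. Fos was at 7.78, 4.02, 14.7, 4.92 and 3.69 CPM in control naive replicates 1, 2, 3, 6 and 7, the order kept in the sentences that follow, so replicate 3 was highest and replicate 1 next. Fosb was at 1.77, 0.689, 1.77, 0.364 and 0.554, equal in the 2 high libraries and under 1 in the rest. Junb (8.37, 7.58, 8.12, 6.47 and 5.72) also had replicates 1 and 3 on top, in a narrower range. Jund did not: its 18.1, 24.6, 23.1, 19.5 and 14.9 CPM put replicate 2 highest and replicate 1 below replicate 6.

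Egr1, the zinc finger factor often read as a marker of neuronal activity, fell into separate levels at 28.9, 8.50, 27.8, 8.38 and 9.42 CPM, with replicates 1 and 3 about level and the other 3 below 10. The receptor Nr4a1 was at 49.04, 23.4, 48.7, 30.1 and 29.3, again with replicates 1 and 3 about level. Its relative Nr4a3 was at 3.84, 0.919, 1.87, 0.638 and 0.462, with the widest ratio of highest to lowest among the tested members, 8.32. Nr4a2 was at 13.2, 7.92, 12.9, 7.29 and 8.95. In all 3 receptor genes the 2 highest values were replicates 1 and 3.

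The matricellular gene Cyr61 was at 7.88, 5.05, 14, 3.64 and 1.85 CPM and the antiproliferative gene Btg2 at 13.5, 7.01, 20.2, 12.5 and 10.6. Both had their top value in replicate 3. Ier2 stood at 4.33, 2.53, 5.13, 3.19 and 2.86 and the phosphatase Dusp1 at 18.4, 12.6, 16.9, 14.7 and 16.1, with the same libraries on top by a smaller margin. Of the tested neuronal members, Homer1 was flat at 20.8, 19.8, 19.1, 19.5 and 17.8, and Arc, at 2.27, 3.45, 3.64, 3.55 and 2.68, was lowest in replicate 1. Klf10, at 19.2, 25.04, 20.4, 24.7 and 27.7, had its 2 lowest values in replicates 1 and 3.

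**Figure D2:**
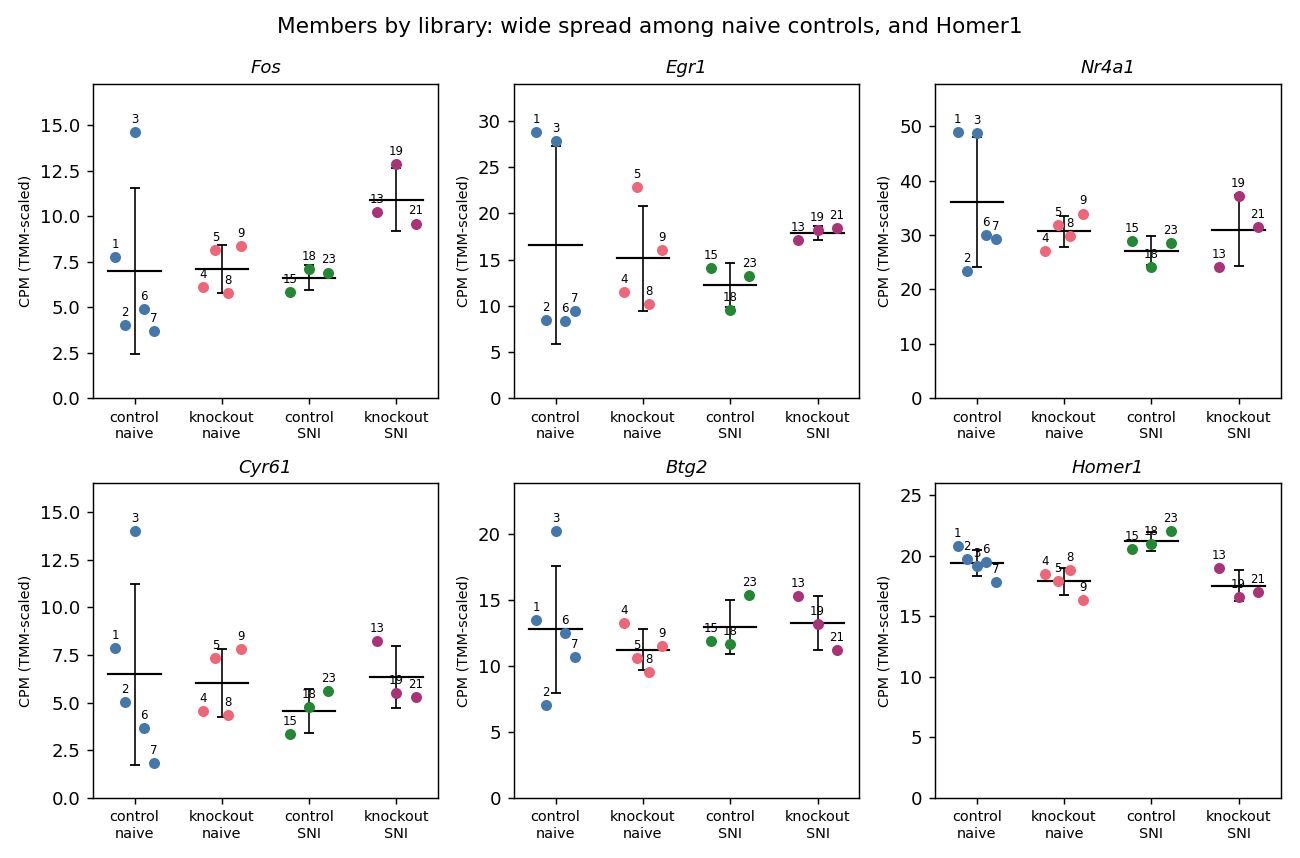
CPM of 6 members in every library, numbered by replicate, with group mean (bar) and SD (whisker; n = 5, 4, 3 and 3). Control naive replicates 1 and 3 lead in Fos, Egr1, Nr4a1, Cyr61 and Btg2, and Homer1 is flat.

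Markers of some other cell types, though not of all, moved with these 2 libraries. The 8 myelinating Schwann cell markers summed to 10950, 9179, 11970, 7716 and 8099 CPM in replicates 1, 2, 3, 6 and 7, and replicates 1 and 3 were the 2 highest for 8 of the 8. The 8 fibroblast markers summed to 3427, 2122, 3010, 2478 and 2486, and these replicates were among the 2 highest for 8 and 7 of them. For the 6 markers of mural cells they were for 6 and 4. The counts were 2 and 3 of 7 for satellite glia, 5 and 4 of 12 for macrophage and 5 and 6 of 10 for endothelial markers. Neutrophil (0 and 6 of 6) and skeletal muscle markers (8 and 1 of 8) split replicates 1 and 3. Sensory neuron markers went the other way, with replicate 1 among the 2 highest for 0 of 12, replicate 3 for 2 and replicate 2 for 11, within sums of 9905 to 11540. Of 12 heat shock genes, chaperones induced by protein damage, replicates 1 and 3 were among the 2 highest for 6 and 9. Of 27 other immediate early genes they were for 14 and 13, against 10, 10 and 7 in replicates 2, 6 and 7. Mitochondrial shares (2.43% to 3.46% in the 5) did not set them apart. The part of these in the members' levels was not tested.

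In the knockout naive group, replicates 5 and 9 were among the 2 highest of the 4 libraries for 20 and 21 members, and replicates 4 and 8 for 10 and 7, against 48.9% to 51.5% of all genes. The margins were smaller, with median member deviations of -0.165 (replicate 4), 0.040 (replicate 5), -0.165 (replicate 8) and 0.240 (replicate 9). Fos was at 6.10, 8.13, 5.80 and 8.36 CPM in replicates 4, 5, 8 and 9, Egr1 at 11.5, 22.8, 10.2 and 16.1 and Nr4a1 at 27.1, 31.8, 29.8 and 33.96. The high libraries here were not those with the most Schwann cell RNA: the Schwann markers summed to 9166, 8474, 9942 and 8655, with replicates 5 and 9 among the 2 highest for 1 of 8 each. Heat shock genes were among the 2 highest in replicates 5 and 9 for 7 and 9 of 12. Of the 27 other immediate early genes, replicate 5 was for 9, the fewest of the group, and replicate 9 for 20. Replicates 4 and 8 were for 13 and 12.

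Injured libraries were closer together, with median member deviations of -0.117 to 0.091. The median SD of log2 CPM within a group was 0.389 for members and 0.15 for all genes in control naive ganglia, with 25 of 29 members above the median gene. It was 0.266 against 0.143 in knockout naive (25 of 29 above), 0.237 against 0.307 in control SNI (13 of 29) and 0.172 against 0.153 in knockout SNI (16 of 29). The wide values over all genes in control SNI include replicate 23. Pooled over the groups, Nr4a3 (SD 0.796, at the 98.6 percentile of all genes), Cyr61 (0.708), Fosb (0.636) and Egr1 (0.629) varied most and Homer1 (0.083, percentile 3.0) least. Fosb rests on 130 counts in all libraries together and Egr1 on 2231.

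**Figure D3:**
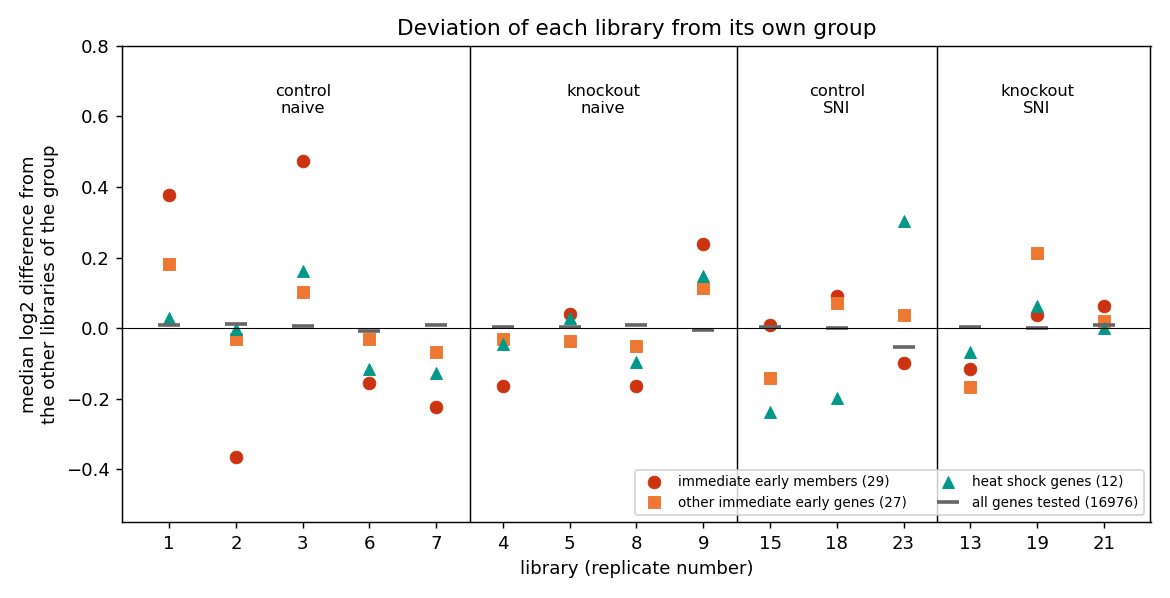
Median log2 difference of each library from the other libraries of its group, for the 29 members, 27 other immediate early genes, 12 heat shock genes and all 16976 genes tested. Members reach 0.473 and -0.365 in control naive libraries, while all genes stay within 0.054 of 0.

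Loss of the cluster without injury left no member called. In knockout against control naive ganglia 0 of 29 members passed (adjusted p under 0.05), against 1.89% of all genes, and 0 of 29 had an unadjusted p under 0.05, against 11.7%. DESeq2 and limma also called 0. The log2 differences were positive in 11 and negative in 18, with a median of -0.08 against 0.00 over all genes. The smallest p belonged to Jund at 25.6 ± 4.69 CPM in knockout (SD, n = 4) and 20.02 ± 3.89 in control (n = 5; log2 0.35, SE 0.19, adjusted p = 0.533, the order in which bracketed values stand from here on). Ier5 (0.30, SE 0.18, 0.606) and Dusp1 (0.20, SE 0.13, 0.635) came next. Jund was at 19.6, 24.7, 27.1 and 30.8 CPM in knockout replicates 4, 5, 8 and 9, which overlap the controls.

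For the members that varied most, the precision was low. Fos averaged 7.10 ± 1.33 CPM in knockout and 7.01 ± 4.57 in control naive ganglia, Egr1 15.1 ± 5.71 and 16.6 ± 10.7, and Nr4a3 1.03 ± 0.434 and 1.54 ± 1.39 (SD, n = 4 and 5). The SE of their log2 differences was 0.33, 0.40 and 0.56, against 0.086 for Homer1. The sign of the list depended on which libraries entered. Without control replicates 1 and 3, an omission chosen after their high levels were seen and so bound to lower the control level, 21 of 27 tested members were positive with a median of 0.23, 7 had an unadjusted p under 0.05, and none was called. Without either one alone the medians were 0.016 (replicate 1) and 0.041 (replicate 3). Without knockout replicate 8 the median was 0.0004, with 14 of 28 positive, and without knockout replicate 4 it was -0.0135, with 13 of 28.

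Injury in control mice called no member either. In control SNI against control naive ganglia 0 of 29 passed, against 2.48% of all genes, and 5 of 29 had an unadjusted p under 0.05, against 15.7%. DESeq2 and limma called 0. Positive and negative log2 differences numbered 13 and 16, with a median of -0.01 against 0.02 over all genes. Dusp2, a phosphatase of nuclear MAP kinases, had the smallest p (log2 -1.77, SE 0.58, adjusted p = 0.145), on 3, 2 and 0 counts in control SNI replicates 15, 18 and 23 and 3, 5, 12, 9 and 9 in naive ones. Maff was at 4.90, 5.99 and 4.32 CPM after injury and 2.76 to 3.97 before, without overlap (log2 0.61, SE 0.20, 0.148). Fosl2, the Fos relative Fra-2, was at 26.4, 27.3 and 25.03 CPM, all above the naive 22.4, 11.9, 23.7, 15.03 and 14.7 (log2 0.58, SE 0.22, 0.209). Maff and Fosl2 were the only members without overlap, 2 of 29, against 1393 of all 16976 genes.

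After injury Fos, Egr1, Nr4a1, Fosb and Junb lay inside the range of the naive controls. Fos was at 5.84, 7.12 and 6.91 CPM in control SNI replicates 15, 18 and 23, Egr1 at 14.1, 9.50 and 13.2 and Nr4a1 at 28.9, 24.1 and 28.5. Fosb stood at 1.36, 0.620 and 0.863, Junb at 6.67, 7.02 and 6.26 and Jund at 30.9, 21.9 and 18.6. Jund in replicate 15 was above all naive controls, and none of the 6 separates from the naive libraries in all 3. Dusp1 was at 18.98, 21.3 and 17.9, Ier2 at 3.65, 3.82 and 3.45, Arc at 5.32, 4.44 and 3.24 and Homer1 at 20.6, 20.96 and 22.01. Leaving out control naive replicates 1 and 3 together was chosen after their high levels were seen, so it was bound to raise these values. Then 22 of 27 tested members were positive with a median of 0.31. Fosl2 was called (log2 0.92, adjusted p = 0.0302), against 1.46% of all genes. The 12 macrophage markers, 7 of them called higher, summed to 309.8 to 583.5 CPM in control SNI and 236.2 to 306.4 in control naive ganglia. The 8 Schwann markers moved the other way without overlap, at 6155 to 6829 CPM against 7716 to 11970, with 1 called lower (Ugt8a), and the 8 fibroblast markers summed to 2508 to 6144 against 2122 to 3427, with 1 called higher (Apod). The part of these cells in the members' values was not tested.

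In knockout mice 5 members rose after injury and none fell, and DESeq2 and limma called the same 5, Fosl2, Arc, Junb, Nr4a2 and Klf10. On GRCm38 these genes lie at chr5:32135801-32157842, chr15:74669083-74672570, chr8:84974484-84978718, chr2:57106830-57124003 and chr15:38291463-38300706. The 5 called of 29 compare with 10.1% of all genes called in either direction and 7.17% called higher. The members' share was above the background in this fit, but not without knockout SNI replicate 19 or 21. The list was chosen with earlier results of these data known, so no conclusion is drawn from the share. Members with an unadjusted p under 0.05 numbered 9, against 27.0% of genes, and 8 of 29 had groups that did not overlap, against 34.2%. On these measures, which count both directions, the members were near or below the background. All 9 were higher, a direction in which 2722 of the 16976 genes had such a p. Signs were positive in 22 and negative in 7, with a median of 0.24 against -0.02 over all genes.

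AP-1 subunits gave 2 of the 5. Fosl2 rose from 14.4, 19.7, 13.2 and 19.2 CPM in knockout naive replicates 4, 5, 8 and 9 to 26.4, 43.3 and 29.7 in knockout SNI replicates 13, 19 and 21 (log2 1.00, SE 0.22, adjusted p = 0.0112). Junb, a Jun relative that often restrains Jun, rose from 6.20, 7.14, 6.18 and 7.71 to 8.21, 10.8 and 13 (log2 0.66, SE 0.17, 0.0223). In both, every injured library was above every naive one, and replicate 13 was the lowest of the injured. Fos was at 10.2, 12.9 and 9.60 CPM after injury, all above the knockout naive values but not called (log2 0.63, SE 0.37, 0.281). Jund was at 28.7, 29.6 and 46.8 (0.46, SE 0.21, 0.177), where replicate 21 is far above the other 2. Fosb had 0.508, 0.397, 1.52 and 0.784 before and 0.758, 0.758 and 0.900 after (-0.0044, SE 0.57).

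Klf10, a factor induced by TGF-beta, was the called zinc finger member, at 22.1, 23.99, 20.9 and 23.5 CPM before and 28.3, 32.8 and 28.1 after injury (log2 0.40, SE 0.12, adjusted p = 0.0457). This is the smallest of the 5 changes. Egr1 did not follow, at 17.1, 18.2 and 18.4 CPM (0.24, SE 0.45), and Egr3, at 1.64, 3.22 and 2.40 against 1.02, 1.78, 0.950 and 1.31, was not called (0.95, SE 0.38, 0.114). Of the nuclear receptors Nr4a2 rose from 9.66, 9.22, 8.27 and 9.01 to 12.5, 15.9 and 14.4 CPM (log2 0.66, SE 0.20, 0.0455). Nr4a1, the highest of them per kilobase of exon, was at 24.1, 37.1 and 31.4 CPM (log2 0.02, SE 0.22) and did not separate from the naive libraries.

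Arc, the neuronal member, rose from 2.54, 2.68, 3.42 and 2.61 CPM to 4.04, 6.72 and 5.10 (log2 0.91, SE 0.23, adjusted p = 0.0193), with all 3 injured libraries above the 4 naive ones. Homer1 was at 18.5, 17.9, 18.8 and 16.3 before and 18.96, 16.6 and 17.01 after (-0.04, SE 0.10). None of the 8 feedback genes was called, with log2 values from -0.86 (Dusp2) to 0.43 (Zfp36). Dusp1 was the nearest, at 15.6, 17.4, 17.1 and 22.5 before and 24.9, 21.1 and 25.01 after (0.39, SE 0.14, 0.0905). Among the short early-response genes Ier5 had 0.52 (SE 0.20, 0.100), Ier2, at 3.35, 4.07, 3.61 and 5.49 against 5.31, 5.02 and 5.50 CPM, had 0.36 (SE 0.23), and Ier3 had -0.24 (SE 0.14).

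**Figure D4:**
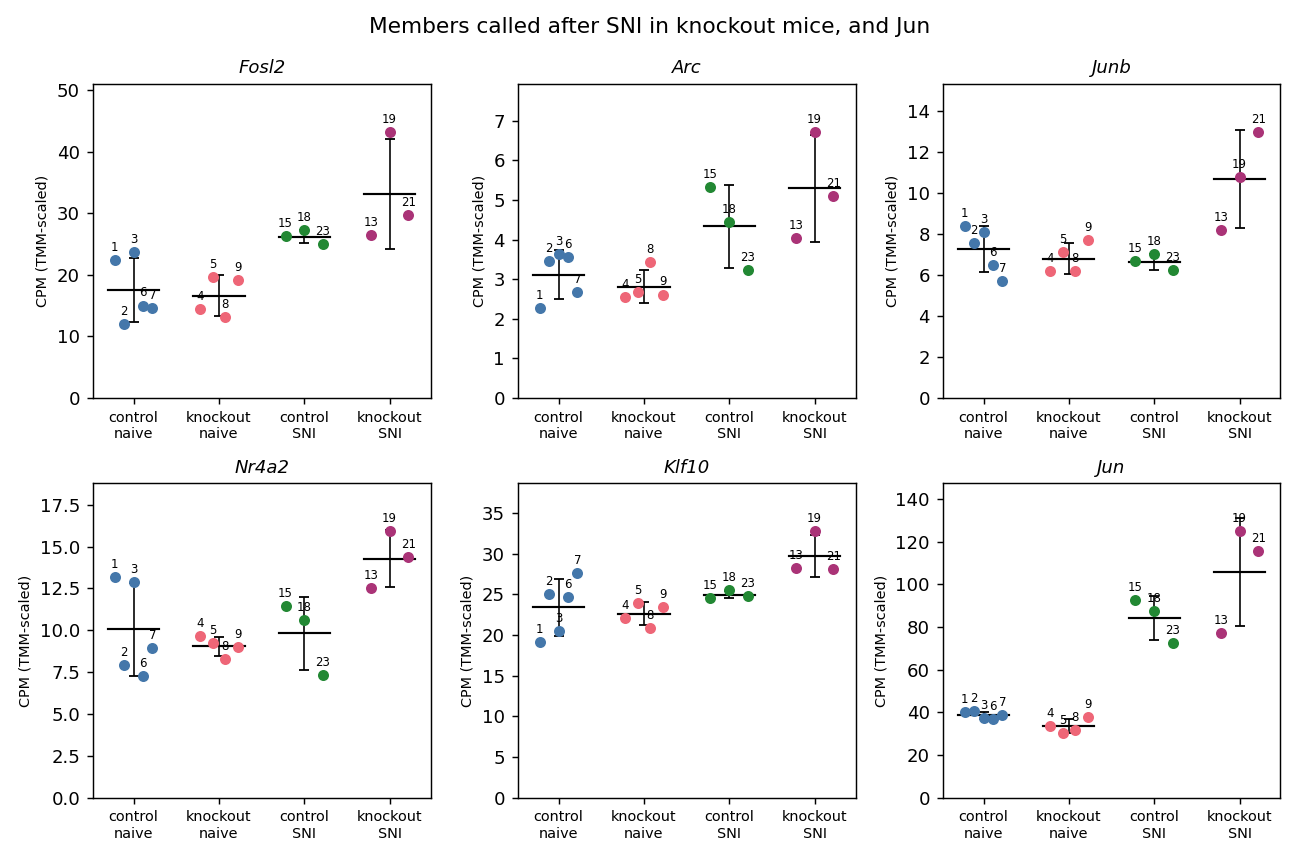
CPM of the 5 members called in knockout SNI against knockout naive ganglia, and of Jun, in every library, numbered by replicate, with group mean (bar) and SD (whisker; n = 5, 4, 3 and 3). All 3 knockout SNI libraries lie above all 4 knockout naive ones in each panel, and replicate 19 is highest in Fosl2, Arc, Nr4a2, Klf10 and Jun.

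The number of calls depended on single libraries, for the members and for all genes. Replicate 19 was the highest of all 15 for Fosl2, Egr3, Klf10, Nr4a2 and Arc, and replicate 21 for Junb, Jund, Dusp1, Ier2 and Ier5. Without knockout SNI replicate 19 no member was called, and the share over all genes fell to 3.41%. The log2 changes were then 0.76 (Fosl2), 0.70 (Arc), 0.65 (Junb), 0.58 (Nr4a2) and 0.32 (Klf10), all still positive. Without replicate 21 only Fosl2 was called, against 4.66% of all genes. Leaving out knockout naive replicate 4 or 8 left Fosl2 and Arc, and leaving out replicate 5 left Fosl2, Junb and Arc, against 6.65%, 5.14% and 6.63% of all genes. Other markers also differed with injury: the 8 skeletal muscle markers summed to 149 to 1153 CPM in knockout SNI and 16.5 to 208 in knockout naive ganglia, and 5 of 12 macrophage markers were called higher (summed 399 to 504 against 290.1 to 421). Of 10 endothelial markers 3 were called, Flt1 and Cdh5 higher and Egfl7 lower. The part of these cells in the 5 calls was not tested.

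Between genotypes after injury no member was called. In knockout SNI against control SNI ganglia 0 of 29 passed, against 1.04% of all genes. DESeq2 called 1 (Junb, adjusted p = 0.0348), against 5.45% of all genes, and limma 0, against 0.831%. Unadjusted p values under 0.05 numbered 7, against 22.7% of genes, and groups did not overlap for 13 of 29, against 16.2% of genes. Signs were positive in 23 and negative in 6, with a median of 0.33 against -0.01 over all genes. Junb was at 10.7 ± 2.40 CPM in knockout and 6.65 ± 0.382 in control (SD, n = 3 each; log2 0.68, SE 0.19, adjusted p = 0.0887). Ier3, a regulator of cell death, had the opposite sign at 10.2, 12.6 and 11.6 against 13.98, 16.6 and 17.3 CPM (-0.46, SE 0.14, 0.116). Fosl1, the Fos relative Fra-1, was at 3.79, 2.75 and 3.60 against 1.98, 1.96 and 1.08 (0.93, SE 0.29, 0.118).

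Of the members commonly read as signs of activity, Fos, Egr1 and Nr4a2 gave positive values without a call, while Fosb was lower in knockout. Fos was at 10.9 ± 1.74 CPM in knockout SNI and 6.62 ± 0.687 in control SNI ganglia, with no overlap (log2 0.73, SE 0.41). Egr1 was at 17.9 ± 0.720 and 12.2 ± 2.42 (0.56, SE 0.50), and Nr4a2 at 14.3 ± 1.70 and 9.81 ± 2.19 (0.51, SE 0.22). Fosb went the other way, at 0.805 ± 0.0822 CPM in knockout SNI and 0.946 ± 0.375 in control SNI ganglia. Homer1 and Maff were among the 6 members with negative values (-0.27, SE 0.11, and -0.57, SE 0.23). Without control SNI replicate 15, 4 members were called (Ier3 lower, Jund, Junb and Fosl1 higher), against 20.6% of all genes, so 4 of 29 was below the background, and without knockout SNI replicate 13, Junb alone, against 0.888%. Without replicate 23, which stands apart, none was called and 23 of 29 were positive. The 12 sensory neuron markers summed to 11520 to 12050 CPM in knockout SNI and 9906 to 10950 in control SNI ganglia, without overlap, with 8 under an unadjusted p of 0.05 (5 higher, 3 lower) and none called. The muscle markers summed to 5.11 to 333 CPM in control SNI, and the part of these cells was not tested. The animals of the 2 injured groups have separate number ranges (948 to 956 and 974 to 976), which cannot be told apart from genotype.

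The injury effects of the 2 genotypes, set side by side, were called for 5 members in knockout and 0 in control, but the difference itself was called for 0 of 29, as for 0 of all 16976 genes (0%). DESeq2 and limma called 0 members. Unadjusted p values under 0.05 numbered 3, against 13.4% of genes. The difference was positive for 25 members and negative for 4, with a median of 0.33 against 0.00 over all genes. Junb (0.77, SE 0.24), Nr4a2 (0.67, SE 0.28) and Ier3 (-0.43, SE 0.19) had the smallest p, each with an adjusted p of 0.365. Without control naive replicates 1 and 3 together the sign was positive in 14 of 27 and the median 0.0037, a shift that leaving out libraries chosen for high levels brings with it. Without either one alone it was positive in 22 of 29 with a median of 0.27 (replicate 1) and in 23 of 28 with 0.19 (replicate 3). Without control SNI replicate 15 the difference was called for 7.17% of all genes and still for 0 members.

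**Figure D5:**
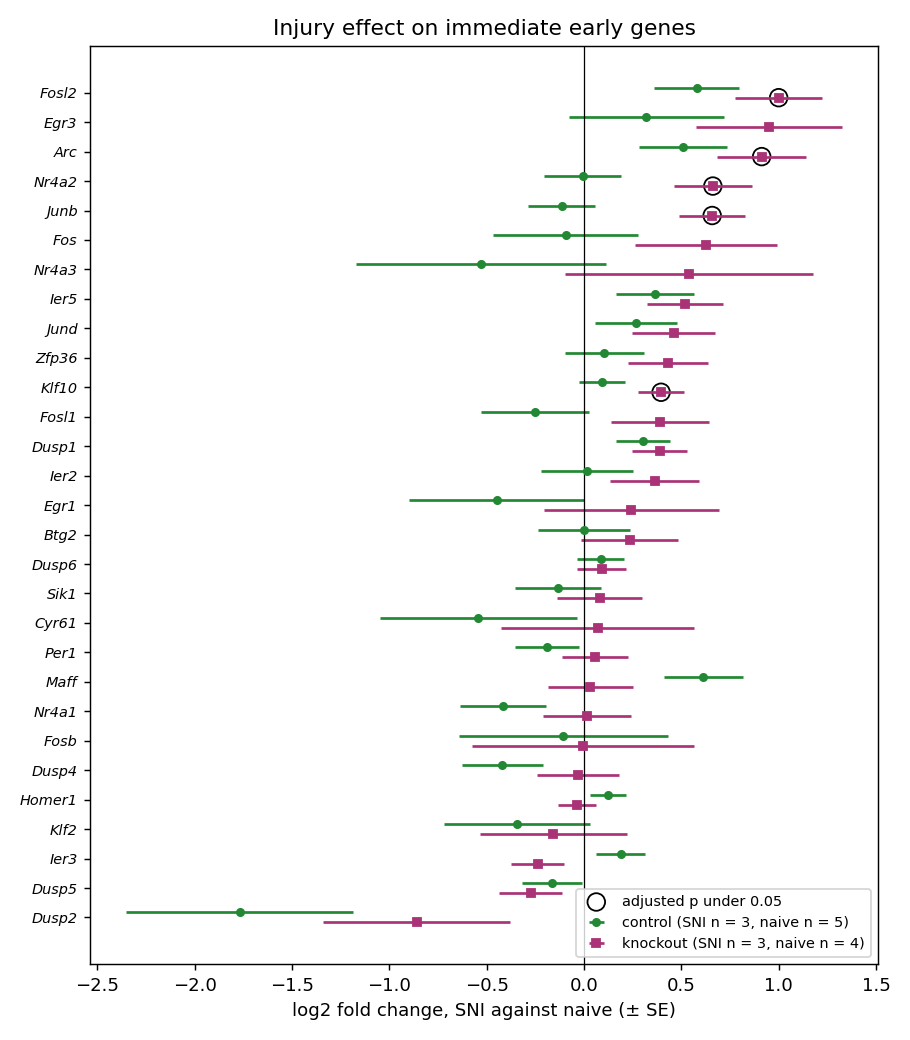
Log2 fold change of SNI against naive ganglia (± SE) for the 29 tested members in control (green) and knockout mice (purple), with rings at an adjusted p under 0.05. Most knockout values lie to the right of the control ones, and the error bars overlap for most members.

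The ranges of the remaining tested members over the 15 libraries follow. Per1, the clock gene, lay at 24.01 to 46.1 CPM, and the phosphatases Dusp6 and Dusp5 at 17.8 to 24.9 and 14.3 to 26.5. Neither phosphatase was called, with log2 injury values in knockout of 0.09 (SE 0.13) and -0.27 (SE 0.16) and in control of 0.09 (SE 0.12) and -0.16 (SE 0.15). Sik1 lay at 5.35 to 11.5 CPM, Zfp36 at 4.94 to 9.43, Dusp4 at 2.37 to 6.30 and Klf2, a factor of vessel walls and lymphocytes, at 2.02 to 6.20. After injury in knockout Zfp36 was at 9.10, 9.09 and 8.80 CPM, above the naive 6.61, 8.03, 5.99 and 6.01, without a call (0.43, SE 0.21, 0.189). Cyr61, Btg2 and Nr4a3, wide among naive controls, had knockout injury values of 0.07 (SE 0.50), 0.24 (SE 0.25) and 0.54 (SE 0.64). In control mice the same 3 had -0.54 (SE 0.51), -0.001 (SE 0.24) and -0.53 (SE 0.64), and none was called.

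The 3 members that were not tested were near the limit of detection. Npas4 had 9, 3, 7, 3 and 4 counts in the control naive libraries, 7, 9, 8 and 10 in knockout naive, 4, 3 and 0 in control SNI and 4, 4 and 3 in knockout SNI. Ptgs2 had 8, 0, 9, 1 and 3 counts in control naive, 3, 7, 4 and 2 in knockout naive, 2, 6 and 3 in control SNI and 2, 4 and 1 in knockout SNI libraries. The 2 highest control naive counts of Npas4, as of Ptgs2, were again in replicates 1 and 3. Egr4 had 11 counts in all and 0 in 9 of the 15 libraries. A difference between groups was not detectable at this depth for Egr4.

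Jun, the main partner of Fos in AP-1, and Atf3, a stress factor of injured neurons, are the injury genes left out of the list. Jun was at 40.1, 40.4, 37.4, 36.7 and 38.96 CPM in control naive replicates 1, 2, 3, 6 and 7, where replicates 1 and 3 do not stand out, and Atf3 at 8.76, 8.73, 7.28, 5.47 and 9.05. Both rose after injury in each genotype: Jun by 1.12 (SE 0.13, adjusted p = 5.61e-05) in control and 1.66 (SE 0.14, 7.25e-07) in knockout, and Atf3 by 4.26 (SE 0.17, 7.27e-11) and 5.31 (SE 0.19, 2.53e-11) on the log2 scale. Neither Jun (0.54, adjusted p = 0.365) nor Atf3 (1.05, 0.365) was called for the difference between genotypes.

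Of 27 tested genes among 29 other immediate early genes, 4 rose after injury in control (Gadd45a, Klf6, Csrnp1 and Gadd45g) and 6 in knockout mice, with none lower and none called between genotypes. Over all 16976 genes, 360 were called higher after injury in control and 1218 (7.17%) in knockout mice. Gadd45a, a stress gene of DNA repair and growth arrest, had log2 1.68 (SE 0.15, adjusted p = 4.40e-06) in control and 1.70 (SE 0.16) in knockout mice. Nfil3, a transcription factor, had 1.65 (SE 0.24) in knockout. Of 38 upstream regulators, kinases and factors that act on immediate early genes in either direction, 1 rose after injury in control mice. It was Elk3, a partner of serum response factor (0.69, SE 0.15). In knockout mice 6 rose after injury, led by Elk3 (0.98, SE 0.16), Mkl1 (0.79, SE 0.14), Rps6ka1 (0.94, SE 0.19) and Mapk14 (0.45, SE 0.090). In naive knockout ganglia Ppp3r1, the regulatory subunit of calcineurin, rose by 0.62 (SE 0.11), Braf by 0.30 (SE 0.067), and Mef2c fell by 0.45 (SE 0.090). The share of all genes called there was 1.89%. Braf was also called higher in knockout SNI against control SNI (0.53, SE 0.083).

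Of 11 late activity genes, whose transcripts follow the early wave, Nptx2, a synaptic pentraxin, was higher in knockout ganglia both naive (log2 0.74, SE 0.14, adjusted p = 0.00786) and injured (0.84, SE 0.17, 0.0224). Injury called 2 higher in control mice, Crh and Timp1. In knockout mice Crh and Vgf were among those called higher and Nrn1 among those called lower. Vgf, a secreted neuropeptide precursor, had 1.65 (SE 0.30). Of the 12 heat shock genes Hspb1 rose in control mice after injury, and in knockout mice Bag3 rose while Hsph1 and Hspd1 fell. The shares of all genes called after injury in either direction were 2.48% in control and 10.1% in knockout mice. No heat shock gene was called between genotypes.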

How the data were processed

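The authors deposited unnormalised read counts per gene for 15 libraries, each from 1 animal's ganglia per the labels. A stranded mRNA kit was used on Trizol RNA, per the labels' protocols. The submitters' processing notes name HTSeq 0.6.1 and TopHat2 2.0.4 with SAMtools, DESeq2 and Cufflinks, on GRCm38. Not given in the sources used here were the annotation release, the strand setting, how reads with several matches were handled, the side of the ganglia and the time after injury. Reads of overlapping or antisense genes may therefore be mixed.

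Symbols, coordinates and exon lengths came from GENCODE M21 (GRCm38), which named 37607 of 39179 identifiers (the rest held 0.523% of counts). Of 27310 genes with a count, 16976 passed filterByExpr (minimum count 10). All 15 libraries entered one edgeR 4.0.16 fit of 4 group means (TMM, robust quasi-likelihood F test, 11 residual degrees of freedom, biological variation 15.3%), with Benjamini-Hochberg adjustment over all genes tested, two-sided, called under 0.05. SE is the log2 change over the square root of F. Log2 CPM used a prior count of 2. Alternatives were DESeq2 1.42.0, limma 3.58.1, other scaling and filters, and each library left out. The procedure was tested on simulated data. No pair of libraries agreed within sampling noise. No replicate number is shared between groups.

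The members and all gene lists were chosen with earlier results of these data known. Values in every library are given for members called in a comparison and for members used most in comparing roles. In each comparison the 3 uncalled members with the smallest p are named, and of other lists at most 4 called genes. Further members (Nr4a3, Cyr61, Btg2) were named after their values were seen. The full count of late activity genes called after injury in knockout mice is not reported here.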

Additional observations from a re-analysis of the deposited data

Results flagged for a closer look

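Arc stood out in knockout naive replicate 8 at 3.42 CPM, against 2.54 to 2.68 in the other 3 libraries of the group, a gap large for the group's range by Dixon's 95% criterion. Ier3 did so in knockout naive replicate 9 at 16.85 CPM, against 12.39 to 12.71. These were 2 of 58 groups of 4 or 5 values examined, and chance alone gives about 1 in 20, or 2.9 groups. The criterion takes 1 library at a time and does not single out control naive replicates 1 and 3, which were high together.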

How the results depend on the processing

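The number of members called in knockout SNI against knockout naive ganglia was 5, against 10.1% of all genes, and 3 without TMM scaling, against 9.28%. It was 10 of 27 with only the groups compared in the fit and 8 of 30 without the wild type controls, each against 27.0%. It ranged from 0 to 4 with 1 library left out, with 0 without knockout SNI replicate 19, 1 without 21, 2 without knockout naive replicate 4 or 8, and 3 without 5. In knockout SNI against control SNI it was 0, and 1 with DESeq2, against 5.45% of all genes. With 1 library left out it was 0 to 4. It was 4 without control SNI replicate 15, against 20.6% of all genes, and 1 without knockout SNI replicate 13, against 0.888%. Injury in control mice gave 0. Without control naive replicates 1 and 3 together, left out for their high levels, it gave 1, against 1.46% of all genes. Knockout against control naive and the difference between injury effects gave 0 under every alternative run. For the called members and the 3 uncalled ones with the smallest p in each comparison, 333 values under alternatives were taken. Of these, 297 were on the same side of the threshold, 23 no longer called, 13 newly called and 0 with the sign turned. Small p was the ground for the choice, so steady signs were likely. Over all tested members signs did turn. In knockout against control naive 11 of 29 were positive, and 21 of 27 without control replicates 1 and 3. Klf10 lost its call with any of the 7 libraries left out (adjusted p up to 0.222), Nr4a2 with any but knockout SNI replicate 13 (up to 0.193), Junb with 4 of them (up to 0.139), Arc without 19 (0.147) or 21 (0.0525), and Fosl2 without 19 (0.0893). The log2 changes stayed at 0.32 to 0.44 for Klf10, 0.58 to 0.75 for Nr4a2, 0.49 to 0.81 for Junb, 0.70 to 1.07 for Arc and 0.76 to 1.14 for Fosl2 with 1 library left out, while the share of all genes called fell from 10.1% to between 3.41% and 9.44%. Without TMM scaling Nr4a2 (0.0765) and Klf10 (0.0907) lost theirs, and without the filter on low counts Klf10 (0.0694). Fits with a library left out also hold fewer libraries, and the cause of these changes was not tested. No paired analysis was possible because no replicate number is shared between groups. Depth limits Egr4, Npas4, Ptgs2, Dusp2, Fosb and Nr4a3, which rest on few counts.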
